A study of Danio rerio with 6 samples.

Results

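Endocytic receptors and lysosomal proteins were followed in zebrafish cells labelled as thyroid follicular cells, sorted by the brightness of a pax2a reporter. The set was chosen by gene name and held 39 genes, of which 37 were found among the 32059 rows of the count table. Both sorted populations came from fish aged 5 months that carried Tg(tg:nls-EGFP), a nuclear green reporter under the thyroglobulin promoter, and pax2a:mKO2-Knock-in, an orange reporter at the pax2a locus. Cells low in mKO2 made up the pax2a-low group and cells high in mKO2 the pax2a-high group, with 3 RNA-seq libraries each. The labels do not say whether replicates came from separate fish or pools, so p-values measure only the spread between these libraries, which may be technical.

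Thyroid hormone is made on thyroglobulin, which follicular cells secrete into the follicle lumen and later take back. Retrieval uses endocytosis. Lysosomal proteases then cut thyroglobulin and free the hormone, while other lysosomal enzymes break down sugars and lipids. Megalin, encoded by lrp2 genes, is a known thyroglobulin receptor of mammalian thyroid cells, and where it carries thyroglobulin was not tested here. Newly made hydrolases reach lysosomes through sorting receptors, and the transcription factor TFEB is known in mammals to drive many lysosomal genes.

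Total counts were 18014891 to 35403210 in the pax2a-high and 6053741 to 10932845 in the pax2a-low libraries. Levels are given as counts per 1000000 of the scaled library size (CPM), and a floor of 3 counts corresponded to 0.0853 to 0.186 CPM in the pax2a-high and 0.237 to 0.586 CPM in the pax2a-low libraries. Pax2a-low replicate 3 stood apart from its group, with 2014 counts of pax2a against 12 and 10, and with 3.80% of its counts from thyroglobulin against 0.454% and 0.398%. Mitochondrial rows took 33.0 ± 13.9% (SD, n = 3) of counts in the pax2a-low and 1.04 ± 0.205% (SD, n = 3) in the pax2a-high libraries. Levels of 8 thyroid markers were compared. They included pax2a, whose reporter split the groups, so its difference is no check, and tg, whose promoter drives the green reporter. Each of the 8 had higher levels in all 3 pax2a-high libraries than in all 3 pax2a-low ones, as did 21.4% of all tested genes. All 8 had reads in both groups. Only 1 of the 8 was higher at an adjusted p under 0.05 by edgeR. Neither pax2a (adjusted p = 0.595 by edgeR) nor tg (adjusted p = 0.118 by edgeR) passed. The thyroid marker levels do not settle the cell type of the pax2a-low libraries. Of 15 ionocyte markers, whose summed level was 303 to 556 CPM in the pax2a-high and 5702 to 7762 CPM in the pax2a-low libraries, 6 had no count in any pax2a-high library. By group means most of the pax2a-high sum came from atp1a1a.1, at 405 CPM against 333 CPM in the pax2a-low cells. All other ionocyte markers had lower means in the pax2a-high cells. Of 12 tested ionocyte markers, 7 were lower and 0 higher at an adjusted p under 0.05 by edgeR. Over all tested genes these shares were 1.46% and 1.12%. The 16 macrophage markers summed to 30.9 to 175 CPM in the pax2a-high and 602 to 1536 CPM in the pax2a-low libraries, and c1qb and lyz had no count anywhere. Most of that sum came from cd74a and cd74b, without which it was 5.81 to 27.1 against 71.7 to 231 CPM. By group means 9 macrophage markers were higher in the pax2a-low and 5 in the pax2a-high cells, among them ptprc at 7.26 against 1.89 CPM, pax2a-high first. Of 6 tested macrophage markers, 0 were lower and 0 higher at an adjusted p under 0.05 by edgeR. Sums were 1.43 to 27.6 against 0.391 to 46.8 CPM for endothelial and 11.8 to 21.1 against 0.391 to 21.5 CPM for red blood cell markers, pax2a-high first. In sorted bulk samples, fewer cells of a type and less RNA per cell cannot be told apart.

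The megalin gene lrp2a was the 1 gene of the set that passed the test, and it was higher in the pax2a-high cells. Another 33 genes were tested without passing, among them the sorting receptors, the lysosomal membrane proteins, the hydrolases and tfeb. Many of these were read in some libraries of a group and missed in others, and their intervals were wide. A call required a Benjamini-Hochberg adjusted p under 0.05 by edgeR's quasi-likelihood test over all 12524 genes tested. Of the 34 tested members 1 was higher and 0 were lower, while 1.12% of all tested genes were higher and 1.46% lower. At an unadjusted p under 0.05 by edgeR, 3 members were higher and 0 lower, against 9.76% and 4.60% of all genes. Those 3 were lrp2a, lrpap1 and idua. With few or no pax2a-low reads, lrpap1 and idua met the count filter only through the pax2a-high libraries, so their place among the 3 is no support. The log2 fold change was above 0 in 23 of the 34 tested members and in 57.1% of all tested genes. Its median, pax2a-high minus pax2a-low, was 0.42 over the tested members and 0.35 over all tested genes. Without pax2a-low replicate 1 these medians were -0.10 and 0.46, and without pax2a-low replicate 2 they were 1.26 and 1.33.

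**Figure D1:**
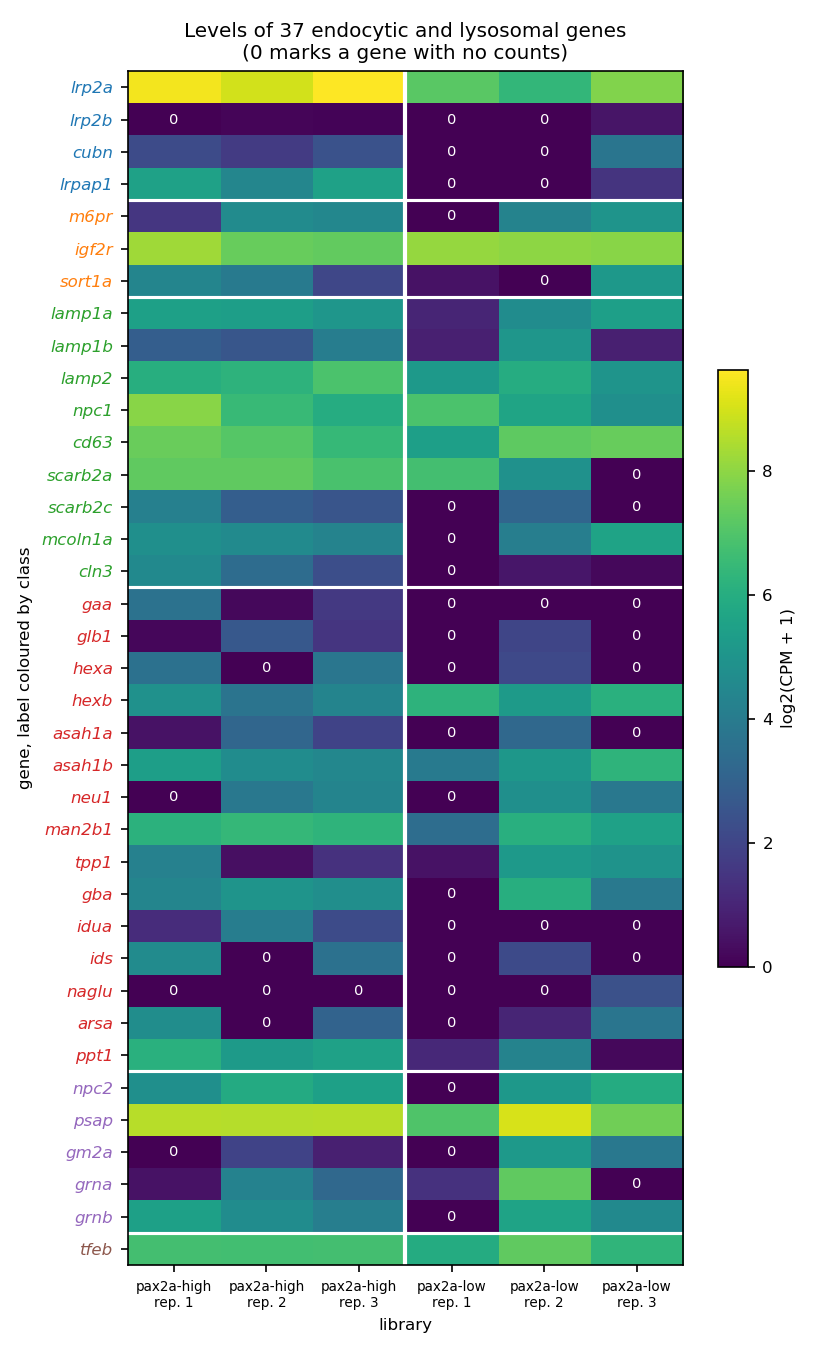
Level of each of the 37 genes in the 6 libraries, as log2(CPM + 1), with genes grouped by class from receptors at the top to tfeb at the bottom; 0 marks a library with no count. The lrp2a row is brighter in the pax2a-high columns, and the first pax2a-low column holds 20 genes at 0.

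The endocytic receptors of this set are the megalin genes lrp2a and lrp2b and the cubilin gene cubn, and lrpap1 encodes the chaperone that escorts receptors of this family out of the endoplasmic reticulum. The level of lrp2a was 707, 507 and 795 CPM in pax2a-high replicates 1, 2 and 3 and 144, 83.2 and 225 CPM in the pax2a-low ones. Every pax2a-high library lay above every pax2a-low library, and the highest pax2a-low value came from replicate 3, which was also highest in pax2a and thyroglobulin. The means were 669 ± 148 and 151 ± 71.4 CPM (SD, n = 3 each), a 4.43-fold difference (log2 fold change 2.15, SE 0.49, 95% interval 1.11 to 3.19, adjusted p = 0.026 by edgeR). Without pax2a-low replicate 3 the log2 fold change of lrp2a was 2.49 (adjusted p = 0.0048 by edgeR). Leaving out pax2a-high replicate 1 ended the lrp2a call (log2 fold change 2.13, adjusted p = 0.117 by edgeR), as did leaving out pax2a-low replicate 2 (1.82, adjusted p = 0.115 by edgeR). It was kept in the other 10 alternatives, with a log2 fold change of 1.97 to 2.49 for lrp2a. Megalin is also a receptor of the kidney proximal tubule, and the 6 markers of that tubule summed to 11.2 to 27.0 CPM in the pax2a-high and 0 to 14.3 CPM in the pax2a-low libraries. Of these, slc13a1 and pdzk1 had no count in any library. Their part in the lrp2a difference was not tested.

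**Figure D2:**
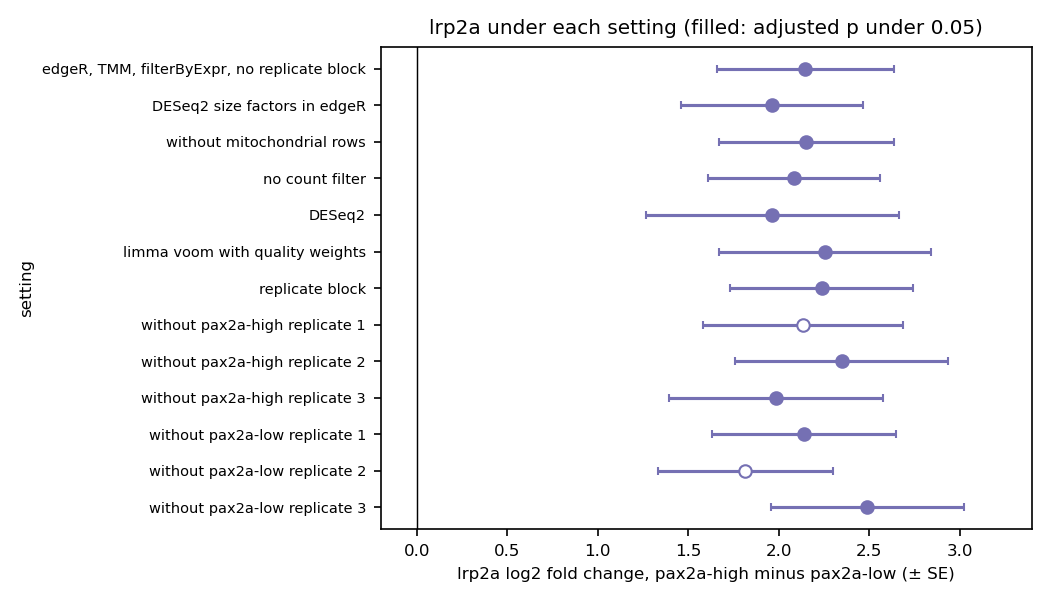
Log2 fold change of lrp2a (x axis, pax2a-high minus pax2a-low, with SE bars) in the reported fit, at the top, and under 12 alternatives; filled points have an adjusted p under 0.05. All 13 estimates lie between 1.82 and 2.49, and the 2 open points are the fits without pax2a-high replicate 1 and without pax2a-low replicate 2.

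Reads of the second megalin gene, lrp2b, were nearly absent, with 0, 2 and 2 counts in the pax2a-high and 0, 0 and 6 in the pax2a-low libraries, and it was not tested. Of the reads assigned to either megalin gene, lrp2a took at least 99.8% in each library. The log2 ratio of lrp2a to lrp2b was 13.29 ± 1.27 in the pax2a-high and 9.89 ± 0.97 in the pax2a-low libraries (SD, n = 3 each; p = 0.1 by a two-sided exact permutation test, the smallest possible, 0.6 adjusted over 6 pairs of related genes). With lrp2b at 6 counts or fewer everywhere, this ratio holds little beyond the reads of lrp2a.

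Cubilin binds ligands together with megalin in mammalian epithelia and needs the protein amnionless to reach the membrane. The level of cubn was 3.59, 2.15 and 4.44 CPM in the pax2a-high and 0, 0 and 12.3 CPM in the pax2a-low libraries. All pax2a-low reads of cubn came from replicate 3, so the groups overlapped (log2 fold change -0.28, SE 2.63, adjusted p = 0.993 by edgeR). Neither amn, the amnionless gene, with 0 counts in all 6 libraries, nor dab2, the clathrin adaptor of megalin, with 0, 41 and 0 against 0, 2 and 88 counts, was tested. These 2 genes were chosen after their values were seen.

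For the receptor chaperone gene lrpap1, levels were 44.9, 20.4 and 44.7 CPM in the pax2a-high and 0, 0 and 1.74 CPM in the pax2a-low libraries. The groups did not overlap, but 22 counts in pax2a-low replicate 3 were its only reads in that group. The log2 fold change of lrpap1 was 5.91 (SE 2.42, 95% interval 0.78 to 11.05) and did not pass over all genes (adjusted p = 0.234 by edgeR). It passed with DESeq2 (log2 fold change 5.82, adjusted p = 0.0094) and in edgeR without pax2a-low replicate 3 (adjusted p = 0.046), when lrpap1 had no pax2a-low read left.

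Sorting receptors carry hydrolases from the Golgi to endosomes, and none of the 3 passed the test. The large mannose 6-phosphate receptor gene igf2r was at 306, 168 and 158 CPM in the pax2a-high and 278, 252 and 242 CPM in the pax2a-low libraries. Pax2a-high replicate 1 was the highest of all and the other pax2a-high libraries the lowest, so the groups overlapped. Its log2 fold change of -0.29 had an interval from -1.34 to 0.77, which does not show equal levels (SE 0.50, adjusted p = 0.927 by edgeR). The small mannose 6-phosphate receptor gene m6pr ranged from 1.86 to 23.9 CPM in the pax2a-high and from 0 to 31.1 CPM in the pax2a-low libraries (a log2 fold change of -0.09, SE 2.1, adjusted p = 0.997 by edgeR). Sortilin, encoded by sort1a, is a Golgi receptor that also carries prosaposin in mammals. The level of sort1a was 19.8, 14.1 and 3.16 CPM in the pax2a-high and 0.391, 0 and 33.8 CPM in the pax2a-low libraries. As with cubn and m6pr, the highest sort1a value belonged to pax2a-low replicate 3 (log2 fold change 0.12, SE 2.36, adjusted p = 0.997 by edgeR).

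**Figure D3:**
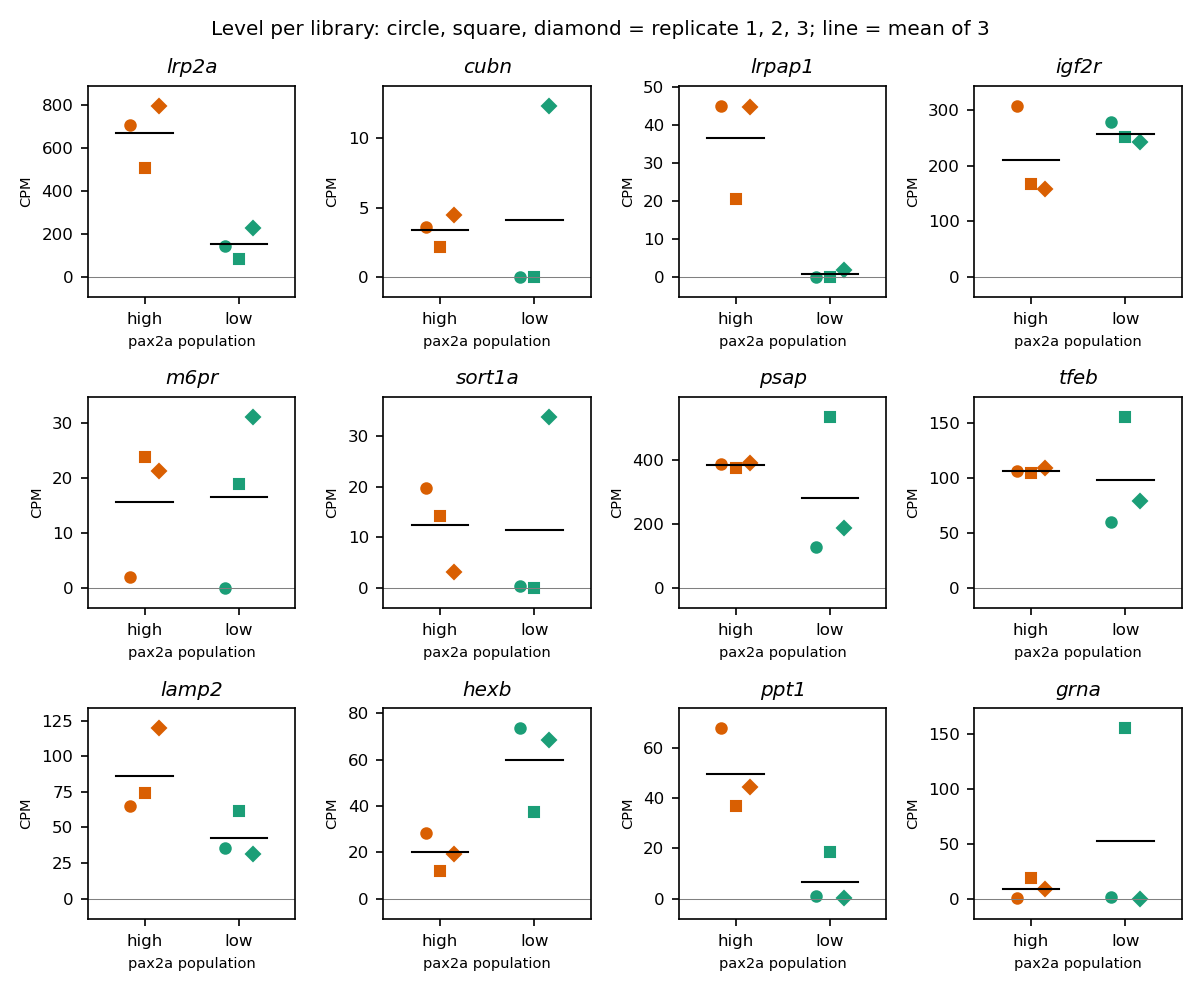
CPM per library (y axis, linear, a scale for each gene) of 12 genes in the pax2a-high and pax2a-low cells; circle, square and diamond are replicates 1, 2 and 3 and the line is the mean. Only lrp2a of these genes passed the test, and the 3 pax2a-high points of psap and tfeb lie close together between the spread pax2a-low points.

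Lysosomal membrane proteins shield the membrane, move lipids and ions, or bring enzymes in. Of the 9 tested, 8 had a positive log2 fold change, beside 57.1% of all tested genes, and 0 passed. Their median was 1.01 beside 0.35 over all tested genes. With few pax2a-low reads, cln3 and scarb2c met the count filter only through the pax2a-high libraries, so their positive sign is no support. The glycoprotein gene lamp2 was at 65.2, 74.3 and 119 CPM in the pax2a-high and 35.3, 61.8 and 31.1 CPM in the pax2a-low libraries. Its groups did not overlap, though pax2a-low replicate 2 came close to the lowest pax2a-high library (log2 fold change 1.01, SE 0.82, adjusted p = 0.743 by edgeR). The related gene lamp1a was at 43.4, 41.4 and 32.7 CPM in the pax2a-high and 0.976, 25.0 and 41.9 CPM in the pax2a-low libraries, and lamp1b at 6.43, 5.02 and 16.1 CPM against 0.781, 32.2 and 0.789 CPM. Among reads of either lamp1 copy, lamp1a took 87.1, 89.2 and 67.0% in the pax2a-high and 55.6, 43.7 and 98.2% in the pax2a-low libraries. These shares overlapped (p = 0.9 by a two-sided exact permutation test on the log2 ratio, 0.9 adjusted over 6 pairs), and reads shared by the copies could be split differently.

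NPC1 and NPC2 pass cholesterol out of lysosomes, one in the membrane and one in the lumen. The npc1 level was 242, 88.4 and 61.0 CPM in the pax2a-high and 118, 48.3 and 26.5 CPM in the pax2a-low libraries. Replicate 1 was the highest of each group, and the groups overlapped (log2 fold change 1.02, SE 0.78, 95% interval -0.63 to 2.68, adjusted p = 0.717 by edgeR). Soluble npc2 was at 26.6, 58.4 and 43.6 CPM in the pax2a-high and 0, 34.2 and 59.5 CPM in the pax2a-low libraries (a log2 fold change of 0.46, SE 1.5, adjusted p = 0.969 by edgeR). In the log2 ratio of npc1 to npc2 the groups overlapped as well (1.42 ± 1.53 against 3.19 ± 6.16, SD, n = 3 each; p = 0.9 by a two-sided exact permutation test, 0.9 adjusted over 6 pairs).

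The tetraspanin gene cd63, a marker of late endosomes, was at 174, 136 and 87.5 CPM in the pax2a-high and 42.6, 152 and 169 CPM in the pax2a-low libraries. Its groups overlapped throughout (log2 fold change 0.13, SE 0.66, 95% interval -1.26 to 1.52, adjusted p = 0.987 by edgeR). The protein encoded by SCARB2 in mammals carries glucocerebrosidase to lysosomes, and the scarb2a level was 156, 154 and 116 CPM in the pax2a-high and 108, 28.0 and 0 CPM in the pax2a-low libraries. No pax2a-low library reached the lowest pax2a-high value of scarb2a, but the spread in the pax2a-low cells was wide (log2 fold change 1.64, SE 1.72, adjusted p = 0.841 by edgeR). The copy scarb2c had reads in 1 pax2a-low library, at 7.79 CPM, and was at 17.3, 6.35 and 4.89 CPM in the pax2a-high libraries (adjusted p = 0.900 by edgeR).

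The calcium channel gene mcoln1a was at 26.8, 23.6 and 18.7 CPM in the pax2a-high and 0, 16.5 and 47.0 CPM in the pax2a-low libraries (a log2 fold change of 0.12, SE 1.85, adjusted p = 0.996 by edgeR). CLN3 is a lysosomal membrane protein whose loss causes a storage disease of neurons in humans. Its gene cln3 had 366, 190 and 138 counts in the pax2a-high and 0, 4 and 2 in the pax2a-low libraries, or 12.1 ± 9.58 and 0.220 ± 0.257 CPM (SD, n = 3 each). The groups did not overlap, but the pax2a-low counts of cln3 were 0 or near the floor of 3. The gene met the count filter only through the pax2a-high libraries, so neither the lack of overlap nor a pass is support. The log2 fold change of cln3, 5.71 (SE 2.87, 95% interval -0.39 to 11.80), did not pass with edgeR (adjusted p = 0.403) but did with DESeq2 (adjusted p = 0.022).

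Hydrolases were the largest class, with 17 genes listed, 15 found, 13 tested and 0 past the threshold. Their summed level was 321, 232 and 250 CPM in the pax2a-high and 99.6, 305 and 262 CPM in the pax2a-low libraries, so the sums overlapped. Pax2a-low replicate 1 held the lowest sum, and 20 of the 37 members had no count there, against 7 and 9 in the other pax2a-low libraries and 1 to 4 in the pax2a-high libraries. That library was also the shallowest, and 50.7% of all tested genes reached 0.586 CPM in it, against 64.9 to 84.1% in the other pax2a-low and 74.6 to 95.8% in the pax2a-high libraries. The members that reached this level made up 40.5% of the 37 in pax2a-low replicate 1, 78.4 and 67.6% in replicates 2 and 3, and 81.1 to 94.6% in the pax2a-high libraries. The 37 include lrp2b, gaa and naglu, which did not pass the count filter. The shares of all genes are over those that did, so members and all genes are not on the same basis.

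Of the members found by name, 1 of 34 tested lay lower in all pax2a-high libraries than in all pax2a-low ones, which held for 8.11% of all tested genes. This was hexb, which encodes the beta subunit of hexosaminidase, the enzyme that trims gangliosides. The hexb level was 28.4, 12 and 19.3 CPM in the pax2a-high and 73.4, 37.5 and 68.3 CPM in the pax2a-low libraries. For hexb the log2 fold change was -1.58 (SE 1.11, 95% interval -3.95 to 0.78) and did not pass (adjusted p = 0.669 by edgeR). Its partner subunit gene hexa had 180, 0 and 452 counts in the pax2a-high and 0, 27 and 0 in the pax2a-low libraries. Of the reads of both subunit genes, hexa took 28.1, 0 and 40.0% in the pax2a-high and 0, 8.31 and 0% in the pax2a-low libraries. These shares overlapped at 0 (p = 0.2 by a two-sided exact permutation test on the log2 ratio, 0.6 adjusted over 6 pairs).

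Levels were higher in every pax2a-high than in every pax2a-low library for 8 of the 34 tested members, a pattern shared by 21.4% of all tested genes. They were lrp2a, lrpap1, lamp2, scarb2a and cln3, described above, and the hydrolase genes ppt1, man2b1 and idua. With few or no pax2a-low reads, lrpap1, cln3 and idua met the count filter only through the pax2a-high libraries, so their place among the 8 is no support. With 0 and 2 counts in pax2a-low replicate 3, scarb2a and ppt1 also needed a pax2a-high library to meet the filter, and the same limit holds. Palmitoyl-protein thioesterase, the product of ppt1, removes fatty acids from proteins, and its gene was at 67.7, 36.9 and 44.3 CPM in the pax2a-high and 1.17, 18.6 and 0.158 CPM in the pax2a-low libraries (a log2 fold change of 2.90, SE 1.72, 95% interval -0.75 to 6.55, adjusted p = 0.546 by edgeR). The alpha-mannosidase gene man2b1 was at 72.7, 83.8 and 76.8 CPM in the pax2a-high and 9.76, 66.7 and 44.2 CPM in the pax2a-low libraries. Its pax2a-high values lay close together and its pax2a-low values far apart (log2 fold change 0.95, SE 0.92, adjusted p = 0.805 by edgeR).

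Iduronidase, encoded by idua, takes part in the breakdown of glycosaminoglycans. The idua counts were 22, 310 and 126 in pax2a-high and 0 in each pax2a-low library. The levels of idua in the pax2a-high libraries, 1.36, 15.9 and 3.58 CPM, were uneven, and replicate 2 carried most of their mean (adjusted p = 0.204 by edgeR). The acid alpha-glucosidase gene gaa, for lysosomal glycogen, had 182, 3 and 71 counts in the pax2a-high and 0 in each pax2a-low library. Pax2a-high replicate 2 was at the floor for gaa, and the gene did not pass the count filter. Its level was 11.3 CPM in pax2a-high replicate 1 and 2.02 CPM in replicate 3.

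Other hydrolases of glycosaminoglycans and sulfatides were read unevenly. Iduronate sulfatase, encoded by ids, had 386, 0 and 386 counts in the pax2a-high and 0, 28 and 0 in the pax2a-low libraries (adjusted p = 0.791 by edgeR). For the glucosaminidase gene naglu, 54 counts in pax2a-low replicate 3 were the only reads, and it was not tested. Arylsulfatase A, encoded by arsa, had 410, 0 and 260 counts in the pax2a-high and 0, 8 and 157 in the pax2a-low libraries (adjusted p = 0.946 by edgeR). In each of these 3 genes at least 1 library of a group had no read while another of the same or the other group had 54 or more. Neither gns nor lipa was found by name. The rows gnsa and gnsb did not match the listed name, although RefSeq gives gns as a synonym of gnsb. The gnsb level was 8.17 ± 3.73 CPM in the pax2a-high and 43.0 ± 29.8 CPM in the pax2a-low cells (SD, n = 3 each), without overlap (log2 fold change -2.39, adjusted p = 0.619 by edgeR), and gnsa had an adjusted p of 0.973 by edgeR.

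The glucocerebrosidase and acid ceramidase genes, for sphingolipid breakdown, did not pass, and their groups overlapped. The level of gba, for glucocerebrosidase, was 19.8, 30.6 and 26.5 CPM in the pax2a-high and 0, 65.3 and 13.7 CPM in the pax2a-low libraries (a log2 fold change of -0.04, SE 1.75, adjusted p = 0.999 by edgeR). Acid ceramidase is encoded by asah1a and asah1b, and asah1b was at 40.9, 25.0 and 20.8 CPM in the pax2a-high and 14.8, 33.4 and 76.0 CPM in the pax2a-low libraries (a log2 fold change of -0.52, SE 1.22, adjusted p = 0.953 by edgeR). Most reads of the pair belonged to asah1b, with asah1a at 0.898, 24.5 and 12% in the pax2a-high and at 0, 20.4 and 0% in the pax2a-low libraries (p = 0.4 by a two-sided exact permutation test on the log2 ratio, 0.8 adjusted over 6 pairs). In both groups replicate 2 had the largest asah1a share.

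The beta-galactosidase gene glb1 stayed under 5.3 CPM in all libraries, from 0.124 to 5.23 CPM in the pax2a-high and from 0 to 3.02 CPM in the pax2a-low ones (adjusted p = 0.946 by edgeR). Sialidase, encoded by neu1, was at 0, 13.5 and 19.1 CPM in the pax2a-high and 0, 26.9 and 13.4 CPM in the pax2a-low libraries, so replicate 1 lacked its reads in both groups (adjusted p = 0.991 by edgeR). The peptidase gene tpp1 was at 18.1, 0.307 and 1.59 CPM in the pax2a-high and 0.391, 36.6 and 30.0 CPM in the pax2a-low libraries. The high and low values of tpp1 came from both groups (log2 fold change -1.75, SE 2.21, adjusted p = 0.880 by edgeR).

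Among the lumenal activators and carriers, psap encodes prosaposin, the precursor of the saposins that help lipid hydrolases. The psap level was 385, 373 and 390 CPM in the pax2a-high and 127, 532 and 185 CPM in the pax2a-low libraries. The pax2a-high libraries were nearly alike, and the pax2a-low ones lay on both sides of them (383 ± 8.86 against 281 ± 219 CPM, SD, n = 3 each; log2 fold change 0.44, SE 0.54, 95% interval -0.69 to 1.58, adjusted p = 0.867 by edgeR). The ganglioside activator gene gm2a was at 0, 2.87 and 0.796 CPM in the pax2a-high and 0, 34.9 and 13.4 CPM in the pax2a-low libraries (a log2 fold change of -3.71, SE 2.83, adjusted p = 0.715 by edgeR).

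Progranulin, a lysosomal growth factor precursor, has the zebrafish genes grna and grnb. The grna level was 0.371, 18.4 and 8.62 CPM in the pax2a-high and 1.56, 155 and 0 CPM in the pax2a-low libraries, and that of grnb 43.7, 24.5 and 16.2 against 0, 47.8 and 22.8 CPM. Nearly all pax2a-low reads of grna came from replicate 2 (log2 fold change -2.51, SE 2.13, adjusted p = 0.765 by edgeR), and grnb did not pass either (adjusted p = 0.990 by edgeR). The log2 ratio of grna to grnb was -2.70 ± 3.53 in the pax2a-high and -1.13 ± 7.07 in the pax2a-low libraries (SD, n = 3 each; p = 0.7 by a two-sided exact permutation test, 0.9 adjusted over 6 pairs). Pax2a-low replicate 2 held the highest level of 10 of the 37 members, which were grna, grnb, gm2a, psap, gba, neu1, tpp1, asah1a, lamp1b and tfeb. Pax2a-high replicates 1, 2 and 3 held the highest level of 12, 3 and 3 members, and pax2a-low replicates 1 and 3 of 1 and 8. No share over all tested genes was taken for these counts, so they are no result about the members. Genes with a count numbered 14215 in pax2a-low replicate 2, against 8392 and 11301 in pax2a-low replicates 1 and 3. Pax2a-low replicate 2 also had the highest summed macrophage markers, 1536 CPM against 602 and 914 CPM in pax2a-low replicates 1 and 3, or 231 against 109 and 71.7 CPM without cd74a and cd74b. The part of macrophage RNA in these values was not tested.

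The regulator gene tfeb was at 106, 104 and 109 CPM in the pax2a-high and 59.7, 155 and 78.6 CPM in the pax2a-low libraries. Its pax2a-high libraries differed little and lay inside the pax2a-low range (106 ± 2.09 against 97.7 ± 50.3 CPM, SD, n = 3 each). The log2 fold change of tfeb was 0.12 (SE 0.66, 95% interval -1.27 to 1.52, adjusted p = 0.989 by edgeR).

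**Figure D4:**
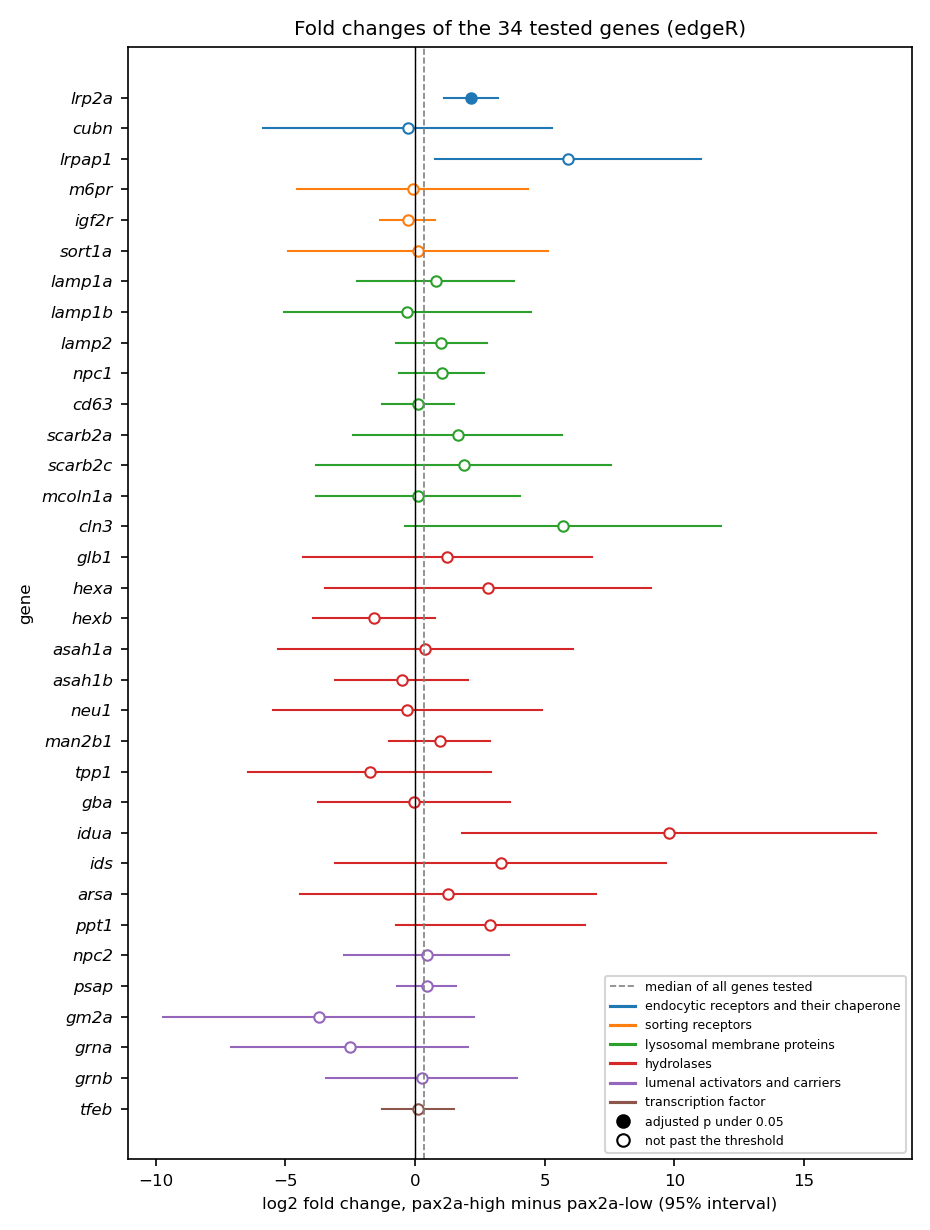
Log2 fold change (x axis, pax2a-high minus pax2a-low) with 95% interval for the 34 tested genes, coloured by class; the dashed line is the median of all tested genes, 0.35. The filled point, lrp2a, is the 1 past the threshold. The widest interval, from 1.82 to 17.79, belongs to idua, which had no pax2a-low read, so its point does not estimate a size.

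Wider lists of the pathway held 1 higher and 2 lower genes, to be read beside 1.12% higher and 1.46% lower of all tested genes. Of 14 tested genes of cathepsins and legumain, 1 rose and 0 fell. That gene was ctsba, for cathepsin B, at 808 ± 106 CPM in the pax2a-high and 129 ± 18.7 CPM in the pax2a-low cells (SD, n = 3 each; log2 fold change 2.65, SE 0.44, adjusted p = 0.0021 by edgeR). Its call held in all 12 alternatives, with edgeR, DESeq2 or limma adjusted p from 2.85e-06 to 0.018 for ctsba. Of 20 tested genes of clathrin uptake and cargo adaptors, 0 rose and 1 fell. This was dnm2a, for dynamin, which pinches coated vesicles off the membrane, at 31.8 ± 13.2 CPM in the pax2a-high and 267 ± 53.6 CPM in the pax2a-low cells (SD, n = 3 each; log2 fold change -3.07, SE 0.62, adjusted p = 0.012 by edgeR). Leaving out pax2a-high replicate 1 ended the dnm2a call (log2 fold change -2.94, adjusted p = 0.083 by edgeR). Of 14 tested lysosomal gene regulators and nutrient sensors, 0 rose and 1 fell, ywhaz, for a 14-3-3 protein of the kind that holds phosphorylated TFEB in the cytosol in mammals. The ywhaz level was 72.4 ± 14.9 and 333 ± 28.1 CPM (SD, n = 3 each; log2 fold change -2.20, SE 0.52, adjusted p = 0.033 by edgeR), and the call ended on leaving out pax2a-high replicate 1 (0.176) or 2 (0.067), or the second pax2a-low library (adjusted p of 0.079, each by edgeR), with log2 fold changes of -2.01, -2.26 and -2.27 for ywhaz.

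In the 6 other lists 0 genes passed in either direction by edgeR. They were 20 tested further hydrolases, 19 further membrane and transport proteins, 20 subunits of the proton pump that acidifies lysosomes, 10 genes of mannose phosphate tagging, 14 further endocytic receptors and 27 genes of endosome traffic. At an unadjusted p under 0.05 by edgeR, those lists held 0, 3, 1, 0, 1 and 0 higher and 0, 2, 0, 0, 4 and 0 lower genes, beside 9.76% higher and 4.60% lower of all tested genes. Their median log2 fold changes were 1.17, 0.57, -0.62, 0.10, -0.75 and 0.17, beside 0.35 over all tested genes. In the lists with a call the medians were -0.66 for cathepsins and legumain, -0.08 for clathrin uptake and -0.73 for regulators. The ionocyte and macrophage marker sums given above did not overlap between the groups, and the part of these cell types in the list values was not tested.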

How the data were processed

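RNA-seq counts of 6 libraries were analysed. Per the series design text and the submitters' processing notes, the authors aligned reads to GRCz11 with HISAT2 and assigned them to exons with featureCounts. Their versions, the strandedness used and the handling of multi-mapping reads are not given in the sources used here. Deposited values are raw counts per gene, not normalized, and 67.8 to 89.0% of counts above 0 in a library were even, so counts are not independent molecules, and floors cover counting error only. Rows without a gene name, reporters included, held 0.0494% of all counts and stayed in the library sizes.

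Counts went through the edgeR quasi-likelihood test (version 4.0.16, R 4.3.3), robust and with the group as its only term, after filterByExpr filtering and TMM scaling. Benjamini-Hochberg adjustment covered all tested genes. Standard errors come from the quasi-likelihood statistic. Ratios within pairs of genes used counts plus 0.5 and exact permutation tests over libraries (scipy 1.17.1), for the 6 of 7 pairs with at least 3 reads in every library (scarb2a and scarb2c had none in pax2a-low replicate 3). The fits were tested on simulated data. Gene lengths were not used, so levels are compared between libraries and not between genes. Sequences and genome positions are not reported here. The planned search for promoter motifs was not run. Members, lists and tests were chosen with earlier results of these data known. Members were all named; of other lists, those past the threshold. The symbols cd68 and epn1a were matched through a separate symbol table. Alternatives were DESeq2 1.42.0, its size factors in edgeR, limma 3.58.1 voom, no mitochondrial rows, no count filter, a replicate block and leaving out each library. The limma fit gave each library a quality weight, which the other fits did not.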

Additional observations from a re-analysis of the deposited data

How the results depend on the processing

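The number of members higher was 1 in the reported fit, 3 with DESeq2 (lrp2a, lrpap1 and cln3) and 0 to 2 when 1 library was left out. With DESeq2 this was 3 of 34 tested members, beside 823 higher of all 12524 genes tested. Of these 3, lrpap1 and cln3 met the count filter only through the pax2a-high libraries, so their passing is no support. The number lower was 0 in each fit. Over all genes, the 140 higher and 183 lower genes became 328 and 299 without the count filter and 823 and 513 with DESeq2. Limma gave 309 lower genes, and leaving out 1 library gave 40 to 270 higher and 120 to 253 lower. With the replicate block 425 genes were higher, and lrp2a had a log2 fold change of 2.24 (edgeR adjusted p = 0.0004). Column headers give same-numbered libraries a shared set number, and the labels do not say what a set marks. Deviations of same-numbered libraries correlated at 0.034, 0.051 and 0.071, and those of differently numbered ones at -0.038 to -0.0082. Each library correlated best with its own number. Deviations were taken from the mean of each group, so a positive value for 1 number pushes the others below 0. Such small correlations cannot decide whether the sets are pairs, and the reported fit treats the groups as unpaired. Each gene's change in log2 fold change from the reported fit had a median of 0.66 with limma and 0.61 with the block. With DESeq2 size factors that median change was -0.10. The median log2 fold change over all tested genes was 0.354 in the reported fit and 1.515, 1.419 and 0.241 in these fits, in that order. In the same order, lrp2a was at 2.26, 2.24 and 1.97. The median over members was 0.36 to 1.43 in the fits on all libraries and -0.10 to 1.26 when 1 was left out. The causes were not tested.

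The log2 fold change of 15 members that did not pass changed sign in at least 1 fit, without passing there. With limma they were 3.24 for cubn, 1.80 for m6pr, 1.31 for lamp1b, -0.18 for cd63, 0.84 for neu1, 2.04 for gba, -0.74 for arsa and 1.24 for grna. With the replicate block they were 5.03 for cubn, 1.19 for m6pr, 2.12 for lamp1b, 1.62 for gba and -0.56 for arsa, and without mitochondrial rows 0.085 for gba. When 1 library was left out they ranged from -0.25 to 4.38 for arsa, -0.77 to 9.05 for asah1a, -0.89 to 0.22 for asah1b, -0.25 to 0.41 for cd63, -0.91 to 8.83 for cubn, -0.58 to 1.84 for gba, -3.48 to 3.54 for grna, -0.29 to 1.25 for grnb, -0.95 to 3.50 for lamp1b, -0.65 to 0.70 for m6pr, -0.44 to 1.45 for mcoln1a, -0.99 to 0.64 for neu1, -0.10 to 1.29 for npc2, -0.51 to 5.92 for sort1a and -0.10 to 0.58 for tfeb. Of the members that kept their sign when 1 library was left out, those whose log2 fold change moved by over 1.5 times ranged from 0.0055 to 8.39 for glb1, 2.21 to 10.15 for hexa, 2.27 to 10.69 for ids, -0.63 to -0.11 for igf2r, 0.25 to 1.56 for lamp1a, 5.30 to 12.26 for lrpap1, 0.52 to 1.48 for man2b1, 0.24 to 1.84 for npc1, 2.30 to 6.24 for ppt1, 0.13 to 1.26 for psap, 0.98 to 3.39 for scarb2a, 1.16 to 10.40 for scarb2c and -4.50 to -1.15 for tpp1. For asah1a, cubn, glb1, hexa, ids, lrpap1 and scarb2c, the highest value came from leaving out the only pax2a-low library with reads. No pax2a-low read of the gene was left in that fit, so these highest values do not estimate the size of a difference. Differences in log2 ratio ranged from -5.59 to 1.04 for grna/grnb, -0.71 to 2.31 for lamp1a/lamp1b and -3.95 to 1.76 for npc1/npc2. By the floor of 3 counts alone, a gene under 0.586 CPM cannot be told from 0 in the shallowest library. Depth did not order the libraries by genes read. Pax2a-low replicate 2 had 14215 genes with a count at a total of 7189239, and pax2a-low replicate 3 had 11301 at 10932845. What left genes without reads was not tested.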
